A study of Homo sapiens with 10 samples.

Results

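The 10 genes described here encode cytoskeletal and related proteins by which neural cells are commonly recognised. They are MAP2, MAPT, MAP1B, DCX, TUBB3, STMN1 and STMN2, whose products form or bind microtubules, NES and VIM, whose products form intermediate filaments, and FABP7, which encodes a fatty acid binding protein. They were chosen by name among the 31017 genes of the RNA-seq count table, and all 10 were found there. For promoter interactions, the promoter of a gene was the baited HindIII fragment that holds its start, and 9 of the 10 genes had such a fragment among the 21875 baits of the interaction lists. STMN2 had none.

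Microtubules are polymers of alpha- and beta-tubulin that grow and shrink at their ends. Microtubule-associated proteins such as MAP2, tau (the product of MAPT) and MAP1B bind along them and stabilise them, doublecortin (DCX) does so in migrating young neurons, and the stathmins hold free tubulin and favour disassembly. Neural stem cells carry filaments of nestin (NES) and vimentin (VIM), and radial glia, the progenitors that line the developing brain, also make FABP7.

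The study compared human ESCs of the established embryonic stem cell line H9 with neuroectodermal cells (NECs) derived from them over 7 days. Both groups came from that single line, and the ESCs were maintained in Pluripro medium. RNA-seq and promoter capture Hi-C (PCHi-C) were each analysed in 2 biological replicates per cell type. With 2 against 2, an exact two-sided permutation test cannot give a p below 0.33, so tests were made only in a model across all genes.

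The RNA-seq libraries held between 19234087 and 25356382 counts. Of 8 pluripotency markers, all fell at an adjusted p under 0.05, and their summed level was 6344 and 6900 CPM (counts scaled to library size) in the ESC libraries against 1080 and 1658 in the NEC libraries. Of 8 neural progenitor markers, 6 were called higher in NECs, among them PAX6 and SOX1, while OTX2 passed the test in the lower direction. Postmitotic neuron markers had 3 of 9 tested genes called higher (ELAVL3, ELAVL4 and SNAP25), and their summed level was 147 and 153 CPM in ESCs against 136 and 126 in NECs. Of 8 neural crest markers, 5 were called higher (PAX3, TFAP2A, TFAP2B, SNAI2 and NGFR) and 1 lower (ETS1). The NEC libraries differed from each other here: the crest markers summed to 246 CPM in NEC replicate 1 and 124 CPM in NEC replicate 2 (149 and 137 in ESCs, of which ETS1 made up 106 and 105), and 7 of the 8 were higher in NEC replicate 1, with PAX3 at 66.3 and 17.9 CPM. Of 6 astroglial markers, 2 were called higher, S100B and AQP4, and 1 lower, GFAP, and the sums were 27.5 and 29.3 CPM in ESCs and 36.3 and 33.6 CPM in NECs, mostly from SLC1A3. Of 7 mesenchyme markers, 2 were called higher, COL3A1 and PRRX1, and 1 lower, THY1, and the sums were 348 and 348 CPM against 370 and 334 CPM. The part of these other cell types in the results below was not tested, and in bulk samples fewer cells of a type and less RNA per cell cannot be told apart.

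To show what stands before the starts of genes with different responses, the 250 bases upstream are printed for FABP7, MAP2 and DCX, which were called higher in NECs (below), and for the 3 genes whose expression did not pass the test (MAP1B, TUBB3 and VIM). They come from RefSeq promoters on GRCh38.p14, each read 5′ to 3′ on the strand of the gene, with every CG dinucleotide in capitals. Entries were matched for 8 of the 10 genes. None was used for MAPT and STMN2, which does not show that RefSeq lacks one for them.
FABP7, chr6:122779466-122779715, plus strand: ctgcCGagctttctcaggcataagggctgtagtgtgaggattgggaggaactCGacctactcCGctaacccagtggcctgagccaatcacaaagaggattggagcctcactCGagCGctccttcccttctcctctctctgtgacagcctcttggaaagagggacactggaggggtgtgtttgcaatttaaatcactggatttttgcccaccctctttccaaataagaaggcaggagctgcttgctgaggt
MAP2, chr2:209579082-209579331, plus strand: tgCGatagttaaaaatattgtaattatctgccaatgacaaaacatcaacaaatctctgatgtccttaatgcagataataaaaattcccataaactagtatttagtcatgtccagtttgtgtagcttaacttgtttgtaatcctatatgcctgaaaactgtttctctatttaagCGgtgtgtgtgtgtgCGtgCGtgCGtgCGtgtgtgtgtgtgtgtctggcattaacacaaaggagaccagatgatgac
DCX, chrX:111412193-111412442, minus strand: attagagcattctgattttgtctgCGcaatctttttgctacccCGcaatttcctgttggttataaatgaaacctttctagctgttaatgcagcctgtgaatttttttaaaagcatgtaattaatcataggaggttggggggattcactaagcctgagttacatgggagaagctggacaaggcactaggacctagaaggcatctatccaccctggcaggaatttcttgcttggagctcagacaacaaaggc
MAP1B, chr5:72107225-72107474, plus strand: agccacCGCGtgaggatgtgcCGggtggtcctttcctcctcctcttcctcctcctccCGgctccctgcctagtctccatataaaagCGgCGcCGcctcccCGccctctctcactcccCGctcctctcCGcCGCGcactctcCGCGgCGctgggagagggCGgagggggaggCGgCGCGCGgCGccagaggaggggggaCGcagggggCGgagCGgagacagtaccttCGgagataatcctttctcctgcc
TUBB3, chr16:89923092-89923341, plus strand: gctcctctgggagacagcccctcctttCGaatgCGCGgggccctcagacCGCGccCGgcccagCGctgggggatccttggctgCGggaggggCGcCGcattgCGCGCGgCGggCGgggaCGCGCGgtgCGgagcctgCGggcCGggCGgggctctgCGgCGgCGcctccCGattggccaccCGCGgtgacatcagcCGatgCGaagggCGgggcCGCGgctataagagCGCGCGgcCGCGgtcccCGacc
VIM, chr10:17227991-17228240, plus strand: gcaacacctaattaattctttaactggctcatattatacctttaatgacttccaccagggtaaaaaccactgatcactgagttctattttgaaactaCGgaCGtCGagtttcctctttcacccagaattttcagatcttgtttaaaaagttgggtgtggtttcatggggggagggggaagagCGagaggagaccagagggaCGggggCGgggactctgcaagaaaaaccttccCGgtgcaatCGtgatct

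CG dinucleotides were counted in the whole promoter window of 300 bases, which also holds 50 bases after the start, and 35116 promoters had a median of 14 with quartiles of 4 and 28. The windows above held 6 for FABP7, 7 for MAP2, 2 for DCX, 10 for VIM, 31 for MAP1B and 47 for TUBB3. Among all promoters, the TUBB3 window stood at a percentile of 97.6, and the DCX window lay below the lower quartile. NES had 14, at the median, and the 3 starts of STMN1 had between 19 and 31. Another start of TUBB3 lay 0.533 kb from the start in the count table and had 9, so genes with several starts differ within themselves. The letters TATAAA, searched on both strands, were found in the windows of MAP1B and DCX printed here and in 11.5% of all promoters. GGGCGG was present in those of MAP1B, TUBB3 and VIM, as in 45.0% of all promoters. CANNTG, in 68.7% of all promoters, was found in the MAP2 window alone of the 6, and ATGCAAAT and AACAAT, in 1.77% and 10.1%, in none of them. Other starts of DCX and MAP1B held CANNTG and another start of MAP2 did not. Other starts of MAP2 and DCX held AACAAT, so the matches depend on the start printed. These matches describe letters and not bound sites.

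Expression was tested in edgeR's quasi-likelihood fit over the 17564 genes that passed a filter on low counts, and all 10 genes were among them. A gene was called when its Benjamini-Hochberg adjusted p was under 0.05 and its log2 fold change was beyond 1.5 in either direction. By this rule 5 of the 10 were called higher in NECs (FABP7, MAP2, STMN2, DCX and MAPT), against 11.4% of all tested genes. The 10 were chosen with earlier results of these data known, so this contrast is a description and was not tested. DESeq2 also called 5 higher. No member was called lower by either tool, against 9.68% of all tested genes called lower by edgeR. At an unadjusted p under 0.05 edgeR also found none lower. By the adjusted p alone 7 were higher, adding NES and STMN1, where the background was 31.5% higher and 29.7% lower. MAP1B, TUBB3 and VIM did not pass. Lane and cell type cannot be told apart, since each cell type had a lane of its own. The median log2 fold change of the 10 was 1.75, and that of all tested genes was 0.01.

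FABP7, the radial glia lipid-binding protein, changed most among the 10. It had 40 and 51 counts in the ESC libraries and 1087 and 1963 in the NEC libraries, or 2.12 and 2.06 CPM against 50.9 and 79.6 CPM. Both NEC libraries stood far above both ESC libraries, and the NEC libraries differed from each other by 1.56-fold. FABP7 rose 31.2-fold (log2 fold change 4.96 with an SE of 0.27, edgeR adjusted p = 4.42e-05), and 1.40% of the tested genes had a higher value.

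**Figure D1:**
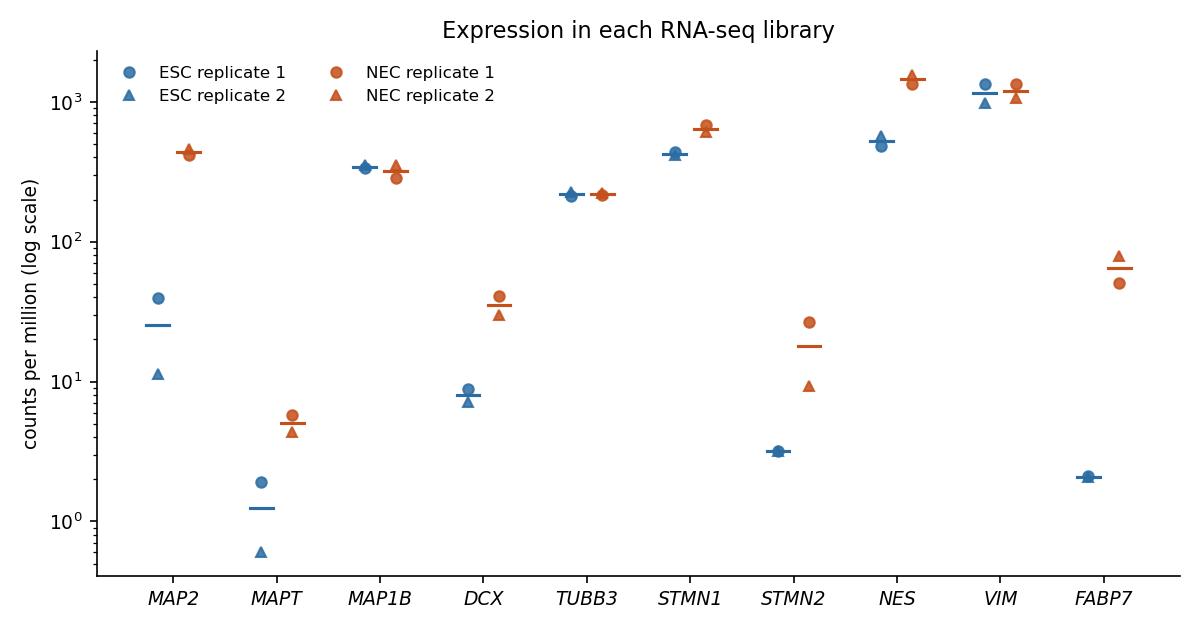
Level of each of the 10 genes in every RNA-seq library, in CPM on a log axis. Circles are replicate 1 and triangles replicate 2 of ESCs (blue) and NECs (orange), and short lines are means of 2. FABP7 and MAP2 are separated most between the cell types, while the ESC and NEC points of MAP1B, TUBB3 and VIM overlap or lie close together.

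MAP2, a dendritic microtubule-associated protein, was next. It had 742 and 281 counts in ESCs and 8858 and 11384 in NECs, or 39.3 and 11.4 CPM against 415 and 461 CPM. The NEC libraries were alike and both far above the ESC libraries, which differed from each other by 3.46-fold. MAP2 rose 17.5-fold (log2 fold change 4.13 with an SE of 0.52, edgeR adjusted p = 0.000875). The size of the change differed with the ESC library used, and the log2 fold change was 5.25 without ESC replicate 1 and 3.47 without ESC replicate 2.

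MAPT, which encodes the axonal protein tau, was the lowest of the 10 in both cell types by CPM per kb of exon. It had 36 and 15 counts in ESCs and 123 and 107 in NECs, or 1.91 and 0.61 CPM against 5.76 and 4.34 CPM. The groups did not overlap, although the ESC libraries differed by 3.14-fold and, as for MAP2, ESC replicate 1 was the higher of the pair. MAPT rose 4.12-fold (log2 fold change 2.04 with an SE of 0.49, edgeR adjusted p = 0.0113). Without ESC replicate 2 the log2 fold change was 1.39, under the threshold of 1.5, and without ESC replicate 1 it was 3.02. Of the 8 neural progenitor markers, 5 were higher in the first ESC library and 2 in the other, and they summed to 514 and 450 CPM, mostly from SOX2 and OTX2. The 10 postmitotic neuron markers went the other way, with 1 higher in ESC replicate 1 and 8 in ESC replicate 2. Their sums were 147 and 153 CPM. The cause of the difference between the ESC libraries was not tested.

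MAP1B, an early microtubule-associated protein of growing axons, showed no change that passed the test. It had 6354 and 8686 counts in ESCs and 6058 and 8701 in NECs, or 337 and 351 CPM against 283 and 353 CPM. NEC replicate 1 was the lowest library and NEC replicate 2 the highest, so the groups overlapped. Its log2 fold change was -0.11 (SE 0.13, edgeR adjusted p = 0.464). Without NEC replicate 2 it was -0.28 with an adjusted p of 0.0287 in edgeR, and without NEC replicate 1 it was 0.04.

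DCX, the doublecortin of migrating neuroblasts, had 168 and 178 counts in ESCs and 869 and 740 in NECs. This is 8.90 and 7.20 CPM against 40.7 and 30.0 CPM. Both cell types had close replicates and the groups lay wide apart. DCX rose 4.40-fold (log2 fold change 2.14 with an SE of 0.19, edgeR adjusted p = 0.000259), and the value stayed between 1.91 and 2.34 under the alternatives tried.

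TUBB3, the beta-tubulin that is widely used to stain neurons, showed no change that passed the test. It had 3980 and 5585 counts in ESCs and 4580 and 5535 in NECs, or 211 and 226 CPM against 214 and 224 CPM. The NEC values lay inside the range of the ESC values. Its log2 fold change was 0.01 (SE 0.09, edgeR adjusted p = 0.957), and its sign changed under the size factors or the test of DESeq2. A gene model on the same strand, RP11-566K11.2, overlaps TUBB3 in part. It had 4086, 5735, 4712 and 5685 counts in the same order, or 103% of those of TUBB3 in each library. Reads of these overlapping models therefore cannot be told apart. Beta-tubulin genes also resemble each other, and the counts of single tubulins are uncertain to that extent.

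The stathmins differed in abundance and in change. STMN1, the ubiquitous stathmin of dividing cells, had 8201 and 10236 counts in ESCs and 14477 and 15041 in NECs, or 434 and 414 CPM against 677 and 610 CPM. The groups did not overlap, and STMN1 rose 1.52-fold (log2 fold change 0.60 with an SE of 0.11, edgeR adjusted p = 0.0033), which is below the threshold of size. STMN2, the stathmin of growing neurites, had 60 and 79 counts in ESCs and 574 and 229 in NECs. This is 3.18 and 3.20 CPM against 26.9 and 9.28 CPM, so that the ESC libraries were equal and the NEC libraries differed by 2.89-fold. STMN2 rose 5.64-fold (log2 fold change 2.50 with an SE of 0.50, edgeR adjusted p = 0.00523). Its log2 fold change without NEC replicate 1 was 1.55, and without NEC replicate 2 it was 3.07.

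Of the 10 postmitotic neuron markers, 8 were higher in NEC replicate 1 and 2, SYN1 and INA, in NEC replicate 2. ELAVL4, a neuronal RNA-binding protein, had 8.70 and 3.36 CPM in the NEC replicates, and ELAVL3 had 7.67 and 4.74 CPM. Of the other stathmins, STMN4 had 10.8 and 3.36 CPM, while STMN3 went the other way with 26.0 and 42.6 CPM. NEUROD1, a neuronal transcription factor, had 12 and 2 counts in NECs and 0 in both ESC libraries, and did not pass the filter. RBFOX3, a marker of mature neurons, was at 4.98 and 5.14 CPM in ESCs and 3.84 and 3.49 CPM in NECs. Markers of other cell types also differed between the NEC libraries. All 8 pluripotency markers had the larger NEC value in replicate 2, such as POU5F1 at 31.0 and 111 CPM. Among 8 neural progenitor markers, 6 were larger in replicate 1 and 2 in the other library. What caused these differences was not tested.

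Of the filament proteins, NES rose and VIM did not pass the test. NES, the nestin of neural stem cells, had 9133 and 14131 counts in ESCs and 28778 and 38606 in NECs, or 484 and 572 CPM against 1347 and 1565 CPM. The groups lay far apart relative to their replicates, and NES rose 2.76-fold (log2 fold change 1.46 with an SE of 0.14, edgeR adjusted p = 0.000325). This lies just under the threshold of 1.5, which it passed with library size alone (1.52), without ESC replicate 2 (1.58) and without NEC replicate 1 (1.57).

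VIM had 25210 and 24360 counts in ESCs and 28757 and 26176 in NECs. In CPM these were 1336 and 985 against 1346 and 1061, so replicate 1 was the higher library in both cell types and the groups overlapped. Its log2 fold change was 0.05 (SE 0.19, edgeR adjusted p = 0.827), and it was negative without ESC replicate 2 or without NEC replicate 1. An antisense gene model inside VIM, RP11-124N14.3, had between 21.7% and 22.5% of the counts of VIM in the 4 libraries. Because counting ignored strand, reads of these partners cannot be told apart.

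**Figure D2:**
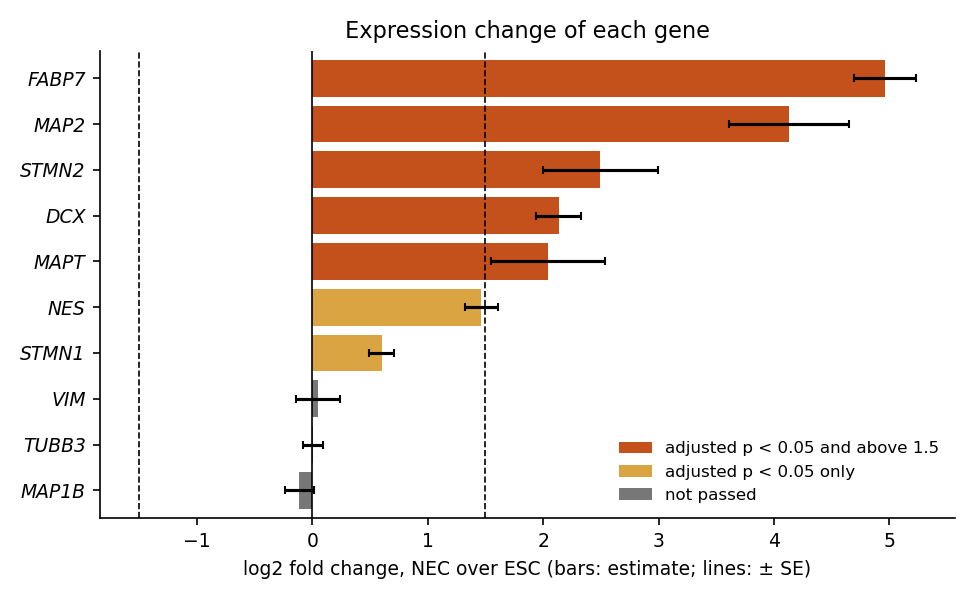
Log2 fold change of NECs over ESCs for each gene, with the SE derived from the edgeR test as a line. Dashed lines mark 1.5 in either direction. Orange bars passed the adjusted p and the size threshold, yellow bars (NES and STMN1) the adjusted p only, and grey bars neither. FABP7 at 4.96 and MAP2 at 4.13 are the longest, and NES at 1.46 ends just short of the line.

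Levels of different genes were compared as CPM per kb of merged exon length. That length counts every annotated exon, used or not, and understates the level of genes with many rare exons such as MAPT. In ESCs, VIM was highest at a mean of 224 ± 47.8 (SD, n = 2), followed by NES at 94.8 ± 11.1, STMN1 at 67.9 ± 2.31, MAP1B at 27.4 ± 0.83 and TUBB3 at 25.4 ± 1.24. The other 5 were at or under 2.14, namely MAP2, STMN2, FABP7, DCX and MAPT in that order. The replicate ranges of MAP2 and STMN2 overlapped, as did those of FABP7 and DCX, and all other neighbours in the order were apart.

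The order differed in NECs. NES at 261 ± 27.7 CPM per kb and VIM at 232 ± 38.9 overlapped at the top, followed by STMN1 at 103 ± 7.68 and MAP2 at 37.0 ± 2.80. FABP7 at 26.2 ± 8.16, TUBB3 at 25.5 ± 0.82 and MAP1B at 25.4 ± 3.90 could not be separated by their replicate ranges. STMN2 at 8.85 ± 6.09, DCX at 3.46 ± 0.74 and MAPT at 0.27 ± 0.05 were lowest and apart from each other. MAP2 and FABP7 thus moved from well below TUBB3 in ESCs to above it or beside it in NECs.

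Related genes were described by list. Of 15 tested tubulins other than TUBB3, 1 was called higher and 2 lower, with a median log2 fold change of -0.10. TUBA1A, the main alpha-tubulin of developing neurons, had 606 and 568 CPM in ESCs and 2441 and 2166 CPM in NECs and rose by 1.97 on the log2 scale (SE 0.13). TUBA1B passed the adjusted p at 0.72, while TUBA4A fell by 4.18 on the log2 scale. TUBB4A, at 51.6 and 47.9 CPM in ESCs against a mean of 17.6 CPM in NECs, was called lower. Its log2 fold change of -1.503 lay just beyond the threshold of 1.5. Alpha-tubulin copies are also close in sequence, so these counts carry the same uncertainty.

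Of 23 other microtubule-binding genes, 4 were called higher and 3 lower, with 9 and 4 by the adjusted p alone and a median of 0.11. STMN4, a brain stathmin, had 4 and 0 counts in ESCs and 231 and 83 in NECs, with a log2 fold change of 6.16 (SE 0.99). The doublecortin-like kinases went opposite ways: DCLK2 rose by 4.83 (SE 0.34), from 11 and 14 counts to 434 and 313, while DCLK1 fell by 2.52 and DCLK3 by 3.02 on the log2 scale. DCX shares its tubulin-binding domains with these kinases and was higher in NECs.

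Of 15 other intermediate filament genes, 2 were called, both lower, and the median was -0.48. By the adjusted p alone 2 were higher and 7 lower. NEFM, the medium neurofilament chain, passed the adjusted p with a log2 fold change of 1.01, and INA, or alpha-internexin, with 0.66. GFAP, the filament of astrocytes, fell by 2.24 and the keratin KRT7 fell by 1.89 on the log2 scale, both from low counts. NEFL, the light neurofilament chain listed among the neuron markers, fell by 0.58 and GAP43, a growth cone protein, by 0.95.

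Of 9 other fatty acid binding proteins, 4 were tested. FABP1, the liver form, had 0 counts in both ESC libraries and 37 and 69 in NECs, and was called higher. FABP5 fell by 0.63 and FABP6 by 2.14 on the log2 scale. FABP5 was at 74.1 and 75.2 CPM in ESCs and 46.0 and 50.2 CPM in NECs, and FABP6 at no more than 18 counts in any library.

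Of 12 genes for kinases of tau and other MAPs and their activators, 2 were called, both higher, with 6 higher and 1 lower by the adjusted p alone and a median of 0.34. TTBK1, a tau-tubulin kinase, had 21 and 30 counts in ESCs and 98 and 158 in NECs, the log2 fold change being 2.23 (SE 0.29). CDK5R2, an activator of CDK5, had 2 and 1 counts in ESCs and 16 in each NEC library. CDK5R1 passed the adjusted p at 0.50 and MARK2 fell by 0.41. Over these 5 lists together, 8 genes were called higher and 8 lower. Of all tested genes, 11.4% were called higher and 9.68% lower, and no list was tested against these shares.

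The tested genes nearest in pattern were sought for the members with the highest and the lowest log2 fold change, as the smallest Euclidean distance of log2 CPM, with 0.5 added, centred on its mean over the 4 libraries. For FABP7 these were PAPPA and B3GALT2, both at 0.13, and VTN at 0.18. Their log2 fold changes were 5.29, 11.2 and 6.71. B3GALT2 had 0 CPM in both ESC libraries, and the added 0.5 narrows differences at such low levels. For MAP1B they were EML5 at 0.0157, SULT1A3 at 0.0198 and ILKAP at 0.028. A distance over 4 libraries is a description of these libraries.

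In PCHi-C, fragment ends that lie near each other in the nucleus are joined and the joints that contain a promoter are captured. The CHiCAGO score ranks a pair of fragments by a p-value, weighted for distance and put on a negative log scale. Pairs with a score of at least 12 were listed for each replicate and for both replicates of a cell type merged. The fragment joined to a bait is its promoter-interacting region (PIR). The lists give no reads per pair and the depth is unknown, and a pair that is absent from a list was below the score and not shown to be without contact.

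The 9 baits had 75 PIRs in the merged ESC list and 100 in the merged NEC list, of which 37 were the same, or 37 of 75 and 37 of 100. No bait except VIM had more PIRs in both NEC replicates than in both ESC replicates, which was so for 13.2% of all baits with calls. MAP2, MAPT and NES had fewer in both NEC replicates, as had 12.9% of all baits. With 8 baits that had any call, 1 and 3 are small numbers and carry no test, and at a score of at least 15 they were 0 and 1, so that VIM no longer stood apart in both NEC replicates. The replicates differed in their total of calls, at 95283 and 86429 in ESCs and 100305 and 81168 in NECs.

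**Figure D3:**
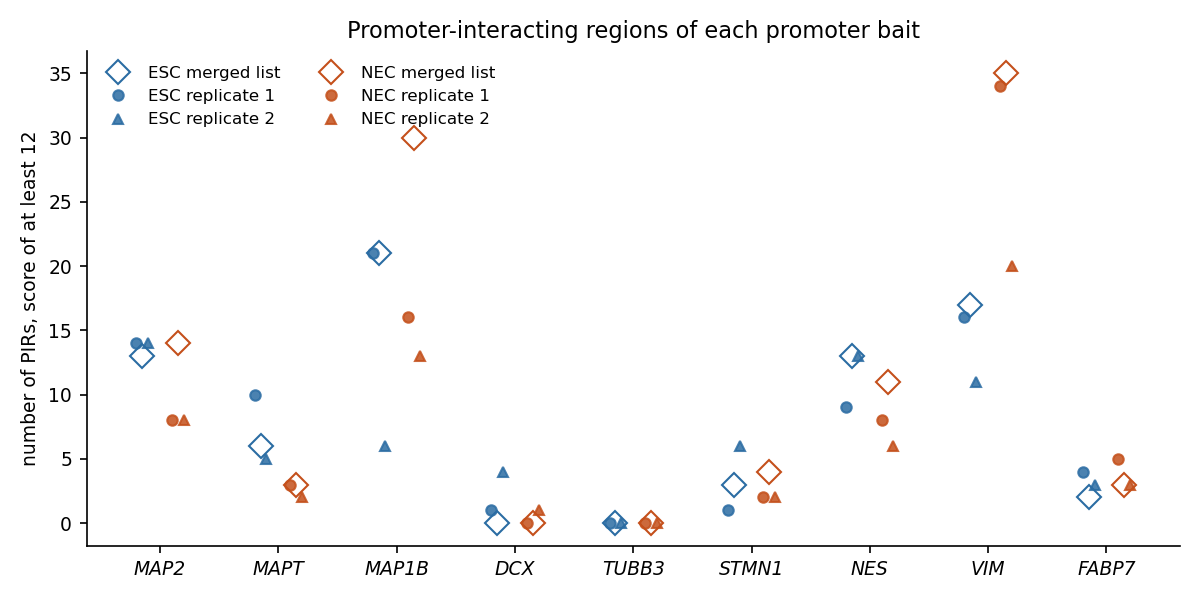
Number of PIRs with a score of at least 12 for the promoter bait of each gene. Open diamonds are the merged lists, circles replicate 1 and triangles replicate 2, in blue for ESCs and orange for NECs. VIM has 17 and 35 in the merged lists, with both NEC replicates above both ESC replicates, and TUBB3 has 0 throughout.

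Of the 9 baits, VIM had the most PIRs in each NEC list and the largest difference between cell types. MAP1B had more in the merged ESC list and ESC replicate 1, and MAP2 and NES in ESC replicate 2. The VIM bait, chr10:17267901-17273494 (GRCh37), held 9 of 10 annotated transcript starts. ESC replicates 1 and 2 gave 16 and 11 PIRs, NEC replicates 34 and 20, and the merged lists 17 and 35, of which 12 were the same. NEC replicate 1 had by far the most, but NEC replicate 2 was still above ESC replicate 1. The difference of the replicate means was 13.5, and 70 of 21768 baits, or 0.322%, had a difference at least as large. Against the merged ESC list, the list of NEC replicate 2 alone had 3 more PIRs.

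Nearly all of these PIRs lay upstream in CUBN, the gene for the endocytic receptor cubilin, which covers chr10:16865963-17171830. PIRs that overlap CUBN numbered 15 in the merged ESC list (14 and 9 in the replicates) and 31 in the merged NEC list (28 and 19). The difference lay in the nearer part. Between 190 and 290 kb from the bait there were 0 PIRs in the merged ESC list and 13 in the merged NEC list, with 0 and 1 in the ESC replicates against 12 and 8 in the NEC replicates. Over 290 to 440 kb the merged lists had 15 and 18, with 14 and 8 against 17 and 11. These windows were chosen after the PIRs were seen.

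The VIM pairs that recurred show the same arrangement. In all 4 replicates, 3 were called, between 337 and 380 kb from the bait, with merged NEC scores between 16.6 and 22.1. In both NEC replicates and neither ESC replicate, 7 were called, between 200 and 375 kb, of which 6 lay within 290 kb. The one nearest to VIM, chr10:17064560-17076560, scored 14.1 in the merged NEC list, and the one with the highest score, chr10:17045142-17052705 in an intron of CUBN, scored 19.9 (17.6 and 12.9 in the replicates). None was called in both ESC replicates alone. Thus 14.9% of the VIM pairs in any replicate were NEC pairs of this kind, where 2.46% of all pairs were, and the other baits together had 2.78%.

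The highest merged ESC score of VIM, 21.5, belonged to chr10:16895838-16898526, which scored 16.7 in the merged NEC list. The highest merged NEC score, 23.8, belonged to chr10:16881249-16889582, which holds an exon of CUBN, had 17.7 and 22.1 in the NEC replicates, and reached 12.1 in ESC replicate 1 only. CUBN itself had 11 and 12 counts in ESCs and 79 and 103 in NECs and rose (log2 fold change 2.88 with an SE of 0.31, edgeR adjusted p = 0.000462), while VIM did not pass the test. A second bait inside VIM, chr10:17274482-17278643, holds the start of RP11-124N14.3 and an annotated transcript start of VIM. It had 10 and 9 PIRs in the ESC replicates against 17 and 18 in the NEC replicates.

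**Figure D4:**
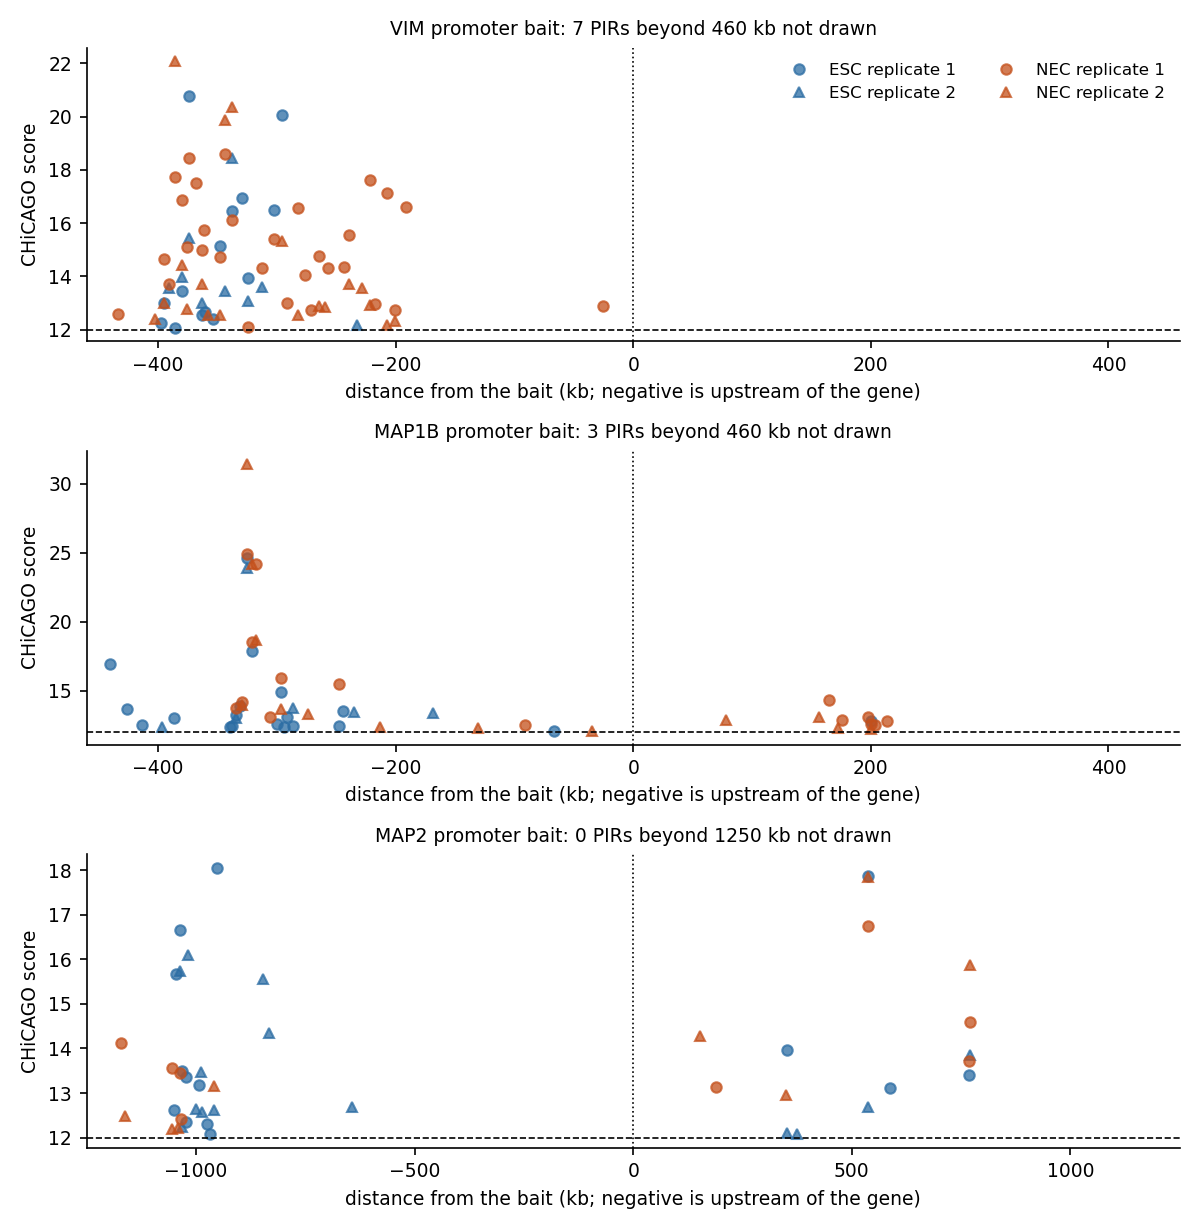
CHiCAGO score of PIRs in each replicate against their distance from the bait of VIM, MAP1B and MAP2, with upstream of the gene to the left. Beyond 460 kb, 7 PIRs of VIM and 3 of MAP1B are not drawn, and PIRs called only in a merged list are left out. Circles are replicate 1 and triangles replicate 2, in blue for ESCs and orange for NECs, and the dashed line marks the score of 12. For VIM, the orange points between 190 and 290 kb upstream have 1 blue point beside them, and for MAP1B the highest points stand near 325 kb upstream in all 4 replicates.

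MAP1B had the pair with the highest merged scores of the 9 baits. Its bait, chr5:71397000-71406794, held 5 of 6 annotated starts and had 21 and 6 PIRs in ESC replicates against 16 and 13 in NEC replicates, so the cell types overlapped. The merged lists had 21 and 30, with 11 the same. The intergenic fragment chr5:71073952-71079586, 325 kb upstream, scored 24.6 and 23.9 in the ESC replicates against 24.9 and 31.4 in the NEC replicates, and 31.7 and 38.3 in the merged lists. It was the only MAP1B pair called in all 4 replicates.

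Fragments beside it were called in NECs. The fragment chr5:71082058-71086680 scored 24.2 and 18.7 in the NEC replicates and was in no ESC list, and chr5:71072085-71073951 scored 14.2 and 14.0 in the NEC replicates, with 12.1 in the merged ESC list. The fragment between the first of these and the top one, chr5:71079587-71082057, scored 17.8 in ESC replicate 1 and 18.5 and 24.2 in the NEC replicates. In the other direction, chr5:71113573-71117420 was called in both ESC replicates only, at 12.4 and 13.7. Expression of MAP1B, as given above, did not pass the test.

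To place these contacts on the genome, the first 60 bases of the VIM and MAP1B baits and of their PIRs with the highest merged NEC score are printed from GRCh37, plus strand. The capitals mark the HindIII site AAGCTT at which each fragment begins. The listed fragment start is 1 base inside the site.
VIM bait, chr10:17267900-17267959: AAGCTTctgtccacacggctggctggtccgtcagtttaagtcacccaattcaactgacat
VIM PIR, chr10:16881248-16881307: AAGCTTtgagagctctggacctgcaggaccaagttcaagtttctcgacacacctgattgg
MAP1B bait, chr5:71396999-71397058: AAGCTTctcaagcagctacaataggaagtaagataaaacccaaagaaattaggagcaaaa
MAP1B PIR, chr5:71073951-71074010: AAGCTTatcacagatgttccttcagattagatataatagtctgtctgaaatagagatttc

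MAP2 was the gene with the second largest change in expression, and its bait had fewer PIRs in the NEC replicates but not in the merged NEC list. The bait, chr2:210285850-210289936, had 14 PIRs in each ESC replicate and 8 in each NEC replicate, yet 13 and 14 in the merged lists, with 4 the same. It lies at the farthest upstream start of the gene and held 3 of 19 annotated starts. The RefSeq start printed above lies 155 kb away, outside it. The fragment that holds that start, chr2:210434172-210444926, was a PIR of the bait in NEC replicate 2 (14.3) and in the merged NEC list (14.2), and in no ESC list.

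The highest score of MAP2 belonged to a fragment with an exon of UNC80, chr2:210824053-210827417, 538 kb downstream. It scored 17.9 and 12.7 in the ESC replicates against 16.8 and 17.8 in the NEC replicates, and 19.3 and 20.9 in the merged lists, so it was called in all 4. UNC80, a subunit of a sodium leak channel complex, had 5.19 and 5.06 CPM in ESCs and 5.43 and 5.92 CPM in NECs, which did not pass the test. A PTH2R fragment 1055 kb upstream, chr2:209229985-209236333, was called in both NEC replicates only (13.6 and 12.2), and a fragment with an exon of UNC80, chr2:210637854-210640323, in both ESC replicates only (14.0 and 12.1).

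NES had a dense local set of contacts with other promoters. Its bait, chr1:156622326-156650015, holds the only annotated start of NES, the whole gene and the start of RP11-284F21.7. It had 9 and 13 PIRs in the ESC replicates against 8 and 6 in the NEC replicates, and 13 and 11 in the merged lists, with 9 the same. Of these, 11 of 13 in ESCs and 9 of 11 in NECs were themselves baits. In all 4 replicates NES contacted the bait of BCAN, a brain proteoglycan gene (chr1:156595211-156618276, 29.4 kb away), with merged scores of 21.2 and 27.9, and the bait of ISG20L2 and RRNAD1 (chr1:156696068-156699449, 61.6 kb away), with 24.3 and 18.2. The NES bait and the BCAN fragment are long, at 27690 and 23066 bases, so their edges lie much nearer than 29.4 kb. BCAN expression was 1.64 and 1.82 CPM in ESCs and 1.73 and 2.15 CPM in NECs and did not pass the test, in contrast to NES. A fragment of HAPLN2, chr1:156592973-156595210, was called in both NEC replicates only (14.1 and 12.2), although the merged ESC list has it at 13.2. The fragment chr1:156682729-156685224 was called in both ESC replicates only (13.8 and 14.5), although the merged NEC list also has it.

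MAPT had few contacts, and none recurred between cell types in the merged lists. Its bait, chr17:43970498-43973590, held 19 of 30 annotated starts and had 10 and 5 PIRs in the ESC replicates against 3 and 2 in the NEC replicates. The PIRs chr17:43773745-43782428 and chr17:43713507-43722145, 194 and 254 kb upstream, were called in both ESC replicates only, with merged scores of 16.1 and 14.4. Its highest merged NEC score, 20.5, belonged to chr17:62910917-62916904, far along the chromosome in LRRC37A3, at 28.2 and 12.9 in the NEC replicates and 14.2 in ESC replicate 2. LRRC37A genes have near-identical copies close to MAPT, so the place of this contact is uncertain.

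STMN1 and FABP7 had few PIRs, and no cell type had the same one in both of its replicates. The STMN1 bait, chr1:26231727-26235442, held 6 of 9 annotated starts and had 1 and 6 PIRs in the ESC replicates and 2 in each NEC replicate. The merged lists had 3 and 4, with the EXTL1 bait, chr1:26342120-26347012, in both at 15.6 and 14.6. The FABP7 bait, chr6:123095559-123101240, held both annotated starts and had 4 and 3 PIRs in the ESC replicates against 5 and 3 in the NEC replicates. None of its pairs was called in more than 1 replicate, and its highest merged scores were 13.4 in ESCs and 13.5 in NECs. The gene with the largest rise in expression among the 10 thus had no replicated PIR in either cell type at this score.

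DCX and TUBB3 were nearly without calls. The DCX bait, chrX:110655224-110659028, had 1 and 4 PIRs in the ESC replicates against 0 and 1 in the NEC replicates, and none in the merged lists. The TUBB3 bait, chr16:89987106-89994084, held 14 of 16 annotated starts and had no PIR in any list. It was the other end of a pair once, in ESC replicate 2.

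Over the 8 baits with calls, 191 pairs were called in any replicate. Of these 7, or 3.66%, were called in all 4, where 2.85% of all 274669 pairs were. In both NEC replicates and neither ESC replicate there were 11, or 5.76%, against the 2.46% of all pairs, and in both ESC replicates and neither NEC replicate 5, or 2.62%, against 2.56%. Without VIM the 3 shares were 2.78%, 2.78% and 3.47% of 144 pairs. Pairs of neighbouring fragments from a single bait are not independent, and no test was made of these shares.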

How the data were processed

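RNA-seq and PCHi-C of H9 ESCs and of NECs at day 7 were analysed, with 2 replicates per cell type and assay, and the Hi-C samples were not used here. Samples were grouped by their labels. The 10 genes, the related gene lists and the marker lists were chosen with earlier results of these data known.

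Per the methods, reads of the RNA libraries were trimmed by the authors, mapped to GRCh37 with TopHat (the submitters' processing notes name TopHat2 2.0.8b and Bowtie 1.0.0) and counted per gene in SeqMonk, ignoring strand, and the deposited values are whole read counts without normalization. For PCHi-C, the authors deposited lists of fragment pairs with a CHiCAGO score of at least 12, per replicate and merged. Such pairs are written once for each direction unless the other end is itself a bait.

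The expression test used edgeR 4.0.16 (R 4.3.3): filterByExpr with a minimum count of 10 left 17564 of 31017 genes, followed by TMM and the quasi-likelihood test with Benjamini-Hochberg adjustment, and a call needed an adjusted p under 0.05 and a log2 fold change beyond 1.5. The prior count of the fit was 0.125. The test gives no SE, so each SE was derived as the absolute log2 fold change divided by the square root of its F statistic. CPM values use library sizes scaled by TMM, and means ± SD are over 2 replicates. The labels call the samples biological replicates of 1 cell line. The p-values weigh the difference between cell types against the spread between these replicates, which the fit moderates across genes. DESeq2 1.42.0 served as an alternative, and the tests were run on simulated data first.

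The replicate numbers did not pair the RNA-seq libraries, as the closing section reports. A bait was assigned where its fragment held the start of the gene as the count table gives it. Exon lengths, annotated starts and neighbouring genes were taken from GENCODE on GRCh37, and promoter windows from RefSeq on GRCh38.p14. PIR lists were handled in Python 3.11.15 with pandas 2.3.3 and numpy 2.4.6, and figures drawn with matplotlib 3.10.9.

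All 10 genes are named, and from each related list the genes with the 2 highest and the 2 lowest log2 fold changes among those with an adjusted p under 0.05. Other marker genes, CUBN, UNC80 and BCAN were named after their values were seen. The PIRs named are those with the highest merged score in each cell type and those called in all 4 replicates or in both of 1 cell type and neither of the other, and others were named after their values were seen. Alternatives were other normalizations, filters and tests, the replicate number as a block, leaving out each replicate, a score of at least 15, PIRs within 10 kb counted as shared, PIRs that are not baits, and every bait with an annotated start.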

Additional observations from a re-analysis of the deposited data

How the results depend on the processing

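The 5 members called higher were 5 or 6 in number under every normalization, filter and test tried, and 7 by the adjusted p alone, and none was called lower under any of them, by edgeR or DESeq2. Of 100 alternative log2 fold changes of the members, 89 kept their direction and their call, which needs both thresholds. Among these, MAP1B without NEC replicate 2 passed the adjusted p (0.0287) but not the size threshold. MAPT came under the size threshold without ESC replicate 2 (1.39), and NES passed it under 3 alternatives. The 7 that changed sign belonged to genes that did not pass the test: TUBB3 with DESeq2's size factors (-0.017) and DESeq2's test (-0.014), and TUBB3, VIM and MAP1B when a replicate was left out. Over the 4 ways of leaving out a replicate the log2 fold change lay between -0.065 and 0.051 for TUBB3, between -0.16 and 0.27 for VIM and between -0.28 and 0.041 for MAP1B. By the adjusted p alone the related lists had 21 genes higher and 19 lower, and all tested genes 5529 and 5209, which follows from dropping the threshold of size.

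Replicate numbers did not pair the libraries: the deviations of same-numbered ESC and NEC libraries correlated at 0.07 over genes. With the replicate number as a block, 5 members were called higher, the related lists had 8 higher and 8 lower, and all genes 1987 and 1711.

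With a score of at least 15 the members had 18 PIRs in ESCs, 34 in NECs and 9 in both, 0 promoters had more in both NEC replicates and 1 had fewer, and the differences of the merged lists became -1 for MAP2, -1 for STMN1 and 1 for NES. Leaving out a replicate left 1 replicate's list to stand against the other cell type's merged list. The shared PIRs were then between 20 and 28, the NEC total between 55 and 100, the promoters with more in NECs between 1 and 2 and those with fewer between 3 and 5. The difference in PIRs, NEC minus ESC, changed sign in at least 1 of these for 5 promoters and lay between -5 and 0 for MAP2, between -8 and 24 for MAP1B, between -2 and 3 for STMN1, between -7 and 2 for NES and between -1 and 3 for FABP7. VIM stayed higher in NECs, at 3 without NEC replicate 1 against 18 in the merged lists. The cause was not tested. The lists hold no read numbers, and 2 replicates limit every comparison.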
